A study of Caenorhabditis elegans with 16 samples.

Results

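The genes *asp-1*, *asp-2*, *asp-3*, *asp-4*, *asp-5*, *asp-6*, *asp-10*, *asp-12*, *asp-13* and *asp-14* encode members of the aspartyl protease family of *Caenorhabditis elegans*, and their transcript levels were followed by RNAseq through feeding, starvation and refeeding. The 10 genes were taken by name from the 46726 genes in the count tables, 9 of them by the current symbol, and all 10 were among the 30177 genes with at least 1 count in some sample. The tenth, *asp-10*, is listed in the name tables as *hrg-7* (WBGene00007605, C15C8.3), for which *asp-10* is taken here to be an earlier name. The samples were whole first-stage (L1) larvae of the N2 wild-type strain and of *hlh-30(tm1978)*, called *hlh-30(lf)* in the study for loss of function, a deletion allele that lacks 2 exons. Each genotype was collected fed on seeded dishes 18 hours after eggs were placed there, starved for 33 hours in M9 salt solution, and starved for 33 hours and then kept for 3 or 15 hours in CeMM (*C. elegans* maintenance medium), a chemically defined liquid food without bacteria. Each of these 8 groups held 2 samples. The study calls them biological replicates. Fed worms differed from starved worms in age and culture as well as in food, and no worms were starved for a further 3 or 15 hours, so CeMM and the longer time since hatching cannot be told apart.

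Aspartyl proteases cut proteins in acid surroundings with a pair of aspartate residues in the active site. In animals the best known of them is the lysosomal enzyme cathepsin D, and pepsin works in the same way in the lumen of the stomach. In *C. elegans* the intestine is both the digestive organ and the main store, and its cells hold many lysosome-related granules. *asp-1* is known as an intestinal gene, *asp-3* and *asp-4* as genes for cathepsin-like enzymes that act with calpains in the necrotic death of neurons, and *hrg-7* as a gene for a secreted protease-like protein through which the intestine signals to neurons about heme. *hlh-30* encodes the worm ortholog of TFEB, a transcription factor that in mammals moves to the nucleus in starvation and turns on genes of lysosomes and autophagy. The question put to these genes was how their transcripts changed with starvation and with CeMM, and whether they did so in the same way without functional HLH-30.

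Total counts per sample lay between 29205691 and 40955529, and the 10 genes had between 84 and 398256 counts in a sample. Levels are given as CPM (counts per 1000000 counts in genes), and between genes as RPKM (CPM per kilobase of exonic length). Over its whole length the *hlh-30* gene had 425 and 375 CPM in fed, 781 and 749 CPM in starved, 494 and 518 CPM in CeMM 3 h and 405 and 394 CPM in CeMM 15 h worms of the *hlh-30(lf)* label. Wild-type libraries had 633 and 664, 673 and 606, 714 and 748, and 656 and 422 CPM in the same states. Because tm1978 removes part of the gene only, a count over the whole gene does not check the labels, and in starved worms it was not lower in *hlh-30(lf)*. Wild-type CeMM 15 h replicate 2 stood apart by 12.9% rRNA counts and a normalization factor of 0.80. Replicate 1 of the wild-type starved, CeMM 3 h and CeMM 15 h groups held 64.3, 65.6 and 9.08 CPM of vitellogenins, yolk genes of adults, against 2.15, 3.09 and 1.0 CPM in replicate 2.

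By the mean over all 16 samples, *asp-1* (2864 RPKM) and *asp-6* (2474 RPKM) were the most abundant members, followed by *asp-5* (857 RPKM) and *asp-3* (812 RPKM). *asp-2* (164 RPKM), *asp-14* (124 RPKM), *asp-4* (109 RPKM), *asp-10* (81.6 RPKM) and *asp-13* (41 RPKM) were lower, and *asp-12* was the lowest at 14.5 RPKM. On WBcel235, 7 of the genes lie on chromosome V and 3 on chromosome X, and *asp-6*, *asp-12* and *asp-5* are neighbours within 6502 bases of chromosome V, with 316 bases between each pair. The lowest and highest sample differed most for *asp-1*, by 60.2 times in CPM, and least for *asp-5* and *asp-3*, by 3.31 and 3.32 times. Unambiguous reads alone were counted, and whether strand was used is not given in the sources used here. Counts of *asp-2*, which shares 426 exonic bases with *inx-10* on the other strand, and of *asp-14*, *asp-4* and *asp-10*, which share 90, 43 and 11 bases with a neighbour, are therefore uncertain to the extent of those bases.

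Together the 10 genes held 0.457% and 0.459% of all counts in starved *hlh-30(lf)* worms, against 2.11% and 2.44% in starved wild-type worms. In fed worms their share was 1.04% and 1.12% in *hlh-30(lf)* and 1.05% and 1.18% in wild type. In CeMM 3 h it was 0.306% and 0.283% in *hlh-30(lf)*, against 1.29% and 1.36% in wild type, and in CeMM 15 h 0.747% and 0.680%, against 0.901% and 0.851%. The genotypes overlapped in fed worms and in no other state, and the share was highest in starved wild-type worms and lowest in *hlh-30(lf)* worms after CeMM 3 h. *asp-1* made up 9.93% and 9.76% of the summed CPM of the 10 genes in starved *hlh-30(lf)* worms, against 44.5% and 44.4% in starved wild-type worms. Without *asp-1* and *asp-6* the other 8 genes still summed to 2094 and 2043 CPM in starved *hlh-30(lf)* worms, against 4582 and 5077 CPM in starved wild-type worms. With 2 samples per group an exact two-sided permutation test of these sums cannot go below p = 0.333, and none was made.

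**Figure D1:**
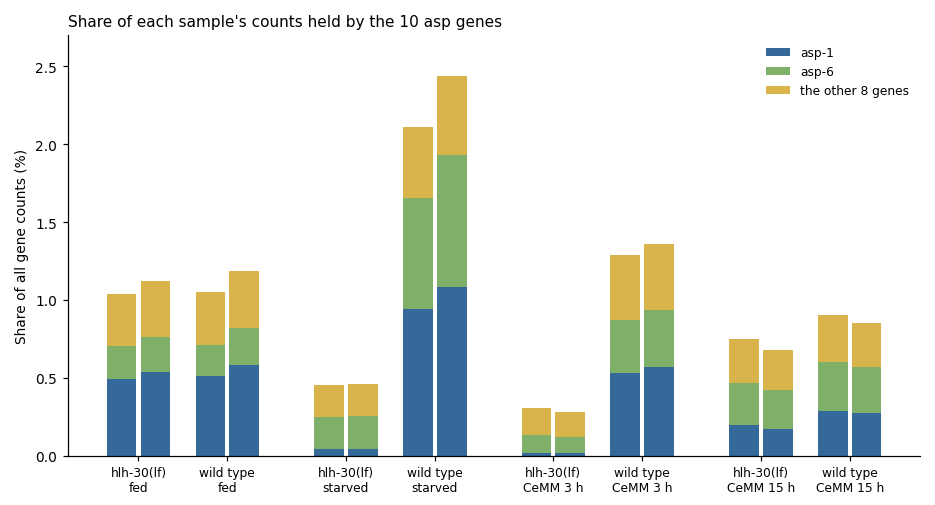
Share of each sample's gene counts (%) held by the 10 *asp* genes, 1 bar per sample, split into *asp-1*, *asp-6* and the other 8 genes; *hlh-30(lf)* stands left of wild type in each state. The bars of starved wild-type worms reach 2.11% and 2.44%, those of starved *hlh-30(lf)* worms 0.457% and 0.459%.

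Differences were tested with edgeR's quasi-likelihood test on TMM-normalized counts, with Benjamini-Hochberg adjustment over all 30177 genes and a threshold of 0.05. Log2 fold changes carry their SE, rose and fell are used of changes past this threshold, and the median over all genes was 0.00 in every comparison. In wild type, starved against fed, 5 of the 10 members rose and 4 fell, where 20.1% of all genes rose and 20.1% fell, and the median of the 10 was 0.34. In *hlh-30(lf)* worms 2 rose and 7 fell with starvation (18.4% and 19.1% of all genes), with a median of -1.22. The test of the difference between these responses passed for 8 genes, with the response of *hlh-30(lf)* above that of wild type in 1 and below it in 7 (14.1% and 13.6% of all genes). Between genotypes, fed worms differed in 1 gene, which was lower in *hlh-30(lf)*, and none was higher (2.16% and 2.26% of all genes). None of the 10 was higher in fed *hlh-30(lf)* worms at an unadjusted p under 0.05 with edgeR, DESeq2 or limma-voom. In starved worms 8 genes were lower and 1 higher in *hlh-30(lf)* (19.3% and 18.8% of all genes), in CeMM 3 h 8 lower and 2 higher (18.6% and 17.7%), and in CeMM 15 h 8 lower and 1 higher (12.4% and 11.7%). Without normalization factors, which shifted the median of all genes at CeMM 15 h by 0.27, the calls of *asp-3* (-0.12, adjusted p = 0.415), *asp-4* (-0.23, adjusted p = 0.0775), *asp-5* (0.02, adjusted p = 1) and *asp-6* (-0.23, adjusted p = 0.0819) were lost there and *asp-2* was called higher, so that 4 members were lower and 2 higher. Of all genes 6275 were then higher and 2203 lower, against 3520 and 3727 with normalization factors. The medians of the 10 genes between genotypes were -0.03 in fed, -1.41 in starved, -1.62 in CeMM 3 h and -0.51 in CeMM 15 h worms. Many of the 30177 genes have too few counts to be called. Over the 17441 genes that pass edgeR's filter on low counts, among them all 10 members, 32.1% were lower and 33.8% higher in starved *hlh-30(lf)* worms, and 4.26% and 4.06% in fed ones. In *hlh-30(lf)* worms 31.7% were lower and 31.9% higher at CeMM 3 h, and 21.6% and 23.0% at CeMM 15 h. With starvation 35.5% of these genes rose and 34.4% fell in wild type, and 35.1% and 31.5% in *hlh-30(lf)*.

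After CeMM 3 h, 3 of the 10 genes were higher and 7 lower than in starved wild-type worms (15.0% and 15.1% of all genes), and none was higher and 8 lower than in starved *hlh-30(lf)* worms (7.71% and 8.71%). With edgeR, DESeq2 and limma-voom alike, 0 of the 10 values in *hlh-30(lf)* at 3 h were positive, so none was higher at an unadjusted p under 0.05 either. After CeMM 15 h, 2 were higher and 6 lower than in starved wild-type worms (15.4% and 13.8% of all genes), whereas 6 were higher and 2 lower than in starved *hlh-30(lf)* worms (15.6% and 15.1%). The tests of the difference between genotypes passed in 3 genes in each direction for CeMM 3 h (10.3% higher and 11.5% lower of all genes). For CeMM 15 h they passed in 6 genes with a higher and 2 with a lower response in *hlh-30(lf)* (10.4% and 12%). From 3 to 15 h in CeMM, 1 gene rose and 5 fell in wild type (8.88% and 6.14% of all genes), and 8 rose and 2 fell in *hlh-30(lf)* (14.1% and 13.3%). Over the 17441 genes that pass the filter on low counts, 16.9% rose and 12.2% fell in wild type in that interval, and 25.6% and 24.3% in *hlh-30(lf)*. Against starved worms the shares higher and lower were 26.6% and 27.3% at 3 h in wild type, and 14.4% and 16.9% in *hlh-30(lf)*. At 15 h they were 27.4% and 25.1% in wild type, and 27.7% and 27.7% in *hlh-30(lf)*. Without normalization factors 1 gene rose and 8 fell from 3 to 15 h in wild type, with *asp-5* (-0.38, adjusted p = 0.00351), *asp-13* (-0.59, adjusted p = 0.000533) and *asp-14* (-0.53, adjusted p = 0.000323) also called, and of all genes 1326 rose and 4150 fell, against 2679 and 1852 with them. For CeMM 15 h over starved wild type, 2 members were then higher and 8 lower (3150 and 5553 of all genes, against 4661 and 4156 with normalization factors). The CeMM 15 h response of *hlh-30(lf)* was then above that of wild type in 7 members and below it in 1 (4104 and 2537 of all genes, against 3135 and 3616). Several of these calls were lost when 1 library was left out. In wild type from 3 to 15 h, *asp-10* (-0.42, adjusted p = 0.00775) and *asp-12* (-0.68, adjusted p = 0.00325) did not pass without CeMM 3 h replicate 1 (-0.29 and -0.44, adjusted p = 0.159 and 0.167), nor *asp-10* without CeMM 15 h replicate 1 (-0.39, adjusted p = 0.0714), and without the 3 libraries with vitellogenin reads neither passed (-0.26 and -0.37, adjusted p = 0.326 and 0.431), which left 4 genes called in place of 6. Conversely, *asp-13* (-0.36, adjusted p = 0.059) and *asp-14* (-0.29, adjusted p = 0.0873) passed in this comparison without CeMM 3 h replicate 1 (-0.52 and -0.42, adjusted p = 0.00678 and 0.0324), and *asp-14* without CeMM 15 h replicate 2 (-0.42, adjusted p = 0.035). Leaving out either *hlh-30(lf)* CeMM 15 h library also gave *asp-13* the call (-0.34 each, adjusted p = 0.0322 and 0.0321). In *hlh-30(lf)* over the same interval *asp-3* did not pass without CeMM 15 h replicate 1 or CeMM 3 h replicate 2 (0.31 and 0.33, adjusted p = 0.0702 and 0.0639), nor *asp-4* without replicate 1 of either group (-0.28 and -0.29, adjusted p = 0.0797 and 0.0648). Against starved *hlh-30(lf)* worms, *asp-3* at 15 h was lost without CeMM 15 h replicate 1 or starved replicate 2 (0.25 and 0.23, adjusted p = 0.138 and 0.126) and *asp-5* at 3 h without CeMM 3 h replicate 2 (-0.39, adjusted p = 0.0574). Against starved wild-type worms, *asp-5* at 15 h was lost without starved replicate 2 (-0.30, adjusted p = 0.0527), and at 3 h without starved replicate 2, CeMM 3 h replicate 1 or *hlh-30(lf)* starved replicate 2 (-0.16, -0.21 and -0.28, adjusted p = 0.376, 0.234 and 0.0589) or without normalization factors (-0.24, adjusted p = 0.0533). These comparisons share samples: both CeMM responses of a genotype are set against the same starved pair, and the genotype difference in starved worms uses both pairs.

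**Figure D2:**
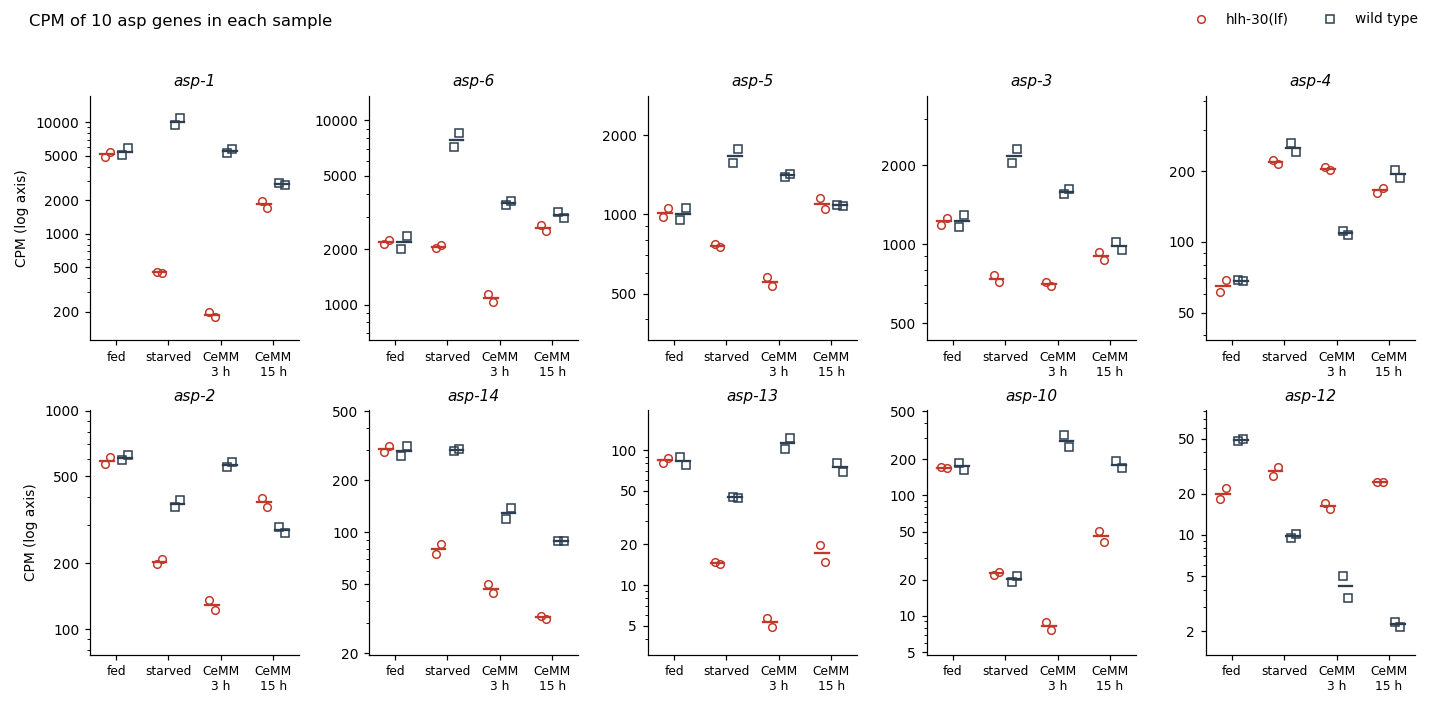
CPM of each gene (log axis) in every sample, for fed, starved, CeMM 3 h and CeMM 15 h worms, with *hlh-30(lf)* as circles left of wild type as squares and a line at each group's mean. The genotypes overlap in fed worms for every gene but *asp-12*, and in CeMM 3 h worms the *hlh-30(lf)* circles lie above the wild-type squares for *asp-4* and *asp-12* and below them for the other 8 genes. With 2 samples per group, lack of overlap alone cannot take an exact two-sided permutation test below p = 0.333.

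*asp-1* (WBGene00000214, chromosome V, 19049123 to 19050825, minus strand), the intestinal protease, showed the largest genotype difference of the 10 in starved worms. It had 454 and 448 CPM in starved *hlh-30(lf)* worms, against 9393 and 10820 CPM in starved wild-type worms, a log2 fold change of -4.56 ± 0.12 (adjusted p = 1.29e-16), or 23.5-fold lower. In fed worms it had 4912 and 5373 CPM in *hlh-30(lf)* and 5100 and 5829 CPM in wild type, where the pairs overlapped (log2 fold change -0.10 ± 0.11, adjusted p = 0.858). Starvation thus went with opposite changes: *asp-1* fell in *hlh-30(lf)* (-3.60 ± 0.12, adjusted p = 2.35e-15) and rose in wild type (0.85 ± 0.11, adjusted p = 1.6e-06), and the difference between these responses was -4.45 ± 0.16 (adjusted p = 2.9e-14). By quantitative PCR the study also reports *asp-1* as lower in starved *hlh-30(lf)* than in starved wild-type worms. By the same assay the study found *asp-1* not significantly higher in starved than in fed wild type, whereas *asp-1* rose there in these counts. After CeMM 3 h *asp-1* had 199 and 180 CPM in *hlh-30(lf)*, the lowest values in the series, against 5280 and 5705 CPM in wild type. After CeMM 15 h the values were 1985 and 1721 CPM in *hlh-30(lf)* and 2855 and 2748 CPM in wild type. Between 3 and 15 h *asp-1* rose 9.78-fold in *hlh-30(lf)* (3.29 ± 0.12, adjusted p = 2.13e-14) and fell in wild type (-0.73 ± 0.11, adjusted p = 6.1e-05). The genotype difference narrowed to -0.88 ± 0.11 at 15 h, still lower in *hlh-30(lf)* in both samples (adjusted p = 2.71e-06). The order of the group means was starved, CeMM 3 h and fed wild type, fed *hlh-30(lf)*, CeMM 15 h wild type, then CeMM 15 h, starved and CeMM 3 h *hlh-30(lf)*; CeMM 3 h and fed wild type and fed *hlh-30(lf)* overlapped, and no other neighbours did.

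*asp-6* (WBGene00000219, chromosome V, 8267546 to 8268937, minus strand) and *asp-5* (WBGene00000218, chromosome V, 8272375 to 8274047, plus strand), a pair of abundant genes that flank *asp-12*, were also lower in starved *hlh-30(lf)* worms. *asp-6* had 2018 and 2101 CPM in starved *hlh-30(lf)* worms, against 7148 and 8495 CPM in starved wild-type worms, and 2120 and 2243 against 2007 and 2359 CPM in the fed genotypes. It rose 3.5-fold with starvation in wild type (1.81 ± 0.10, adjusted p = 1.11e-12), the second largest rise of the 10 genes there, whereas in *hlh-30(lf)* the change was -0.17 ± 0.10 and did not pass (adjusted p = 0.217). The responses differed by -1.98 ± 0.14 (adjusted p = 1.79e-10). After CeMM 3 h *asp-6* was at 1137 and 1030 CPM in *hlh-30(lf)* and 3453 and 3630 CPM in wild type, and after CeMM 15 h at 2712 and 2512 CPM in *hlh-30(lf)* and 3184 and 2932 CPM in wild type. It was lower after CeMM 3 h than in starved worms of both genotypes (-0.94 ± 0.10 in *hlh-30(lf)* and -1.19 ± 0.10 in wild type, adjusted p = 3.35e-07 and 2.4e-09). At 15 h *asp-6* was slightly above its starved level in *hlh-30(lf)* (0.33 ± 0.10, adjusted p = 0.0156). That call was lost without *hlh-30(lf)* CeMM 15 h replicate 1 (0.30, adjusted p = 0.109) and without either starved *hlh-30(lf)* library (0.30 and 0.35, adjusted p = 0.185 and 0.129), and with limma-voom (0.32, adjusted p = 0.0546).

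*asp-5* had 772 and 749 CPM in starved *hlh-30(lf)* worms, against 1560 and 1767 CPM in starved wild-type worms, and 975 and 1055 against 954 and 1059 CPM in the fed genotypes. It fell with starvation in *hlh-30(lf)* (-0.51 ± 0.10, adjusted p = 6.9e-05) and rose in wild type (0.69 ± 0.10, adjusted p = 7.22e-07), a difference between responses of -1.20 ± 0.14 (adjusted p = 4.26e-08). After CeMM 3 h it had 576 and 533 CPM in *hlh-30(lf)*, against 1389 and 1428 CPM in wild type, a difference of -1.39 ± 0.10 (adjusted p = 2.03e-12). After CeMM 15 h the genotypes overlapped, at 1149 and 1044 CPM in *hlh-30(lf)* and 1088 and 1079 CPM in wild type. The test called *asp-5* lower in *hlh-30(lf)* at 15 h (-0.27 ± 0.10, adjusted p = 0.0396), but that call rests on the normalization factors: without them the value was 0.02 (adjusted p = 1). It was also lost without wild-type CeMM 15 h replicate 2 (-0.15, adjusted p = 0.475) and without either CeMM 15 h library of *hlh-30(lf)* (-0.33 and -0.19, adjusted p = 0.0736 and 0.404). Leaving out either library of *hlh-30(lf)* fed, starved or CeMM 3 h, either of wild-type fed, or wild-type CeMM 3 h replicate 1 also ended it (-0.27 to -0.26, adjusted p between 0.0521 and 0.0881).

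*asp-3* (WBGene00000216, chromosome X, 6791064 to 6792715, plus strand) and *asp-4* (WBGene00000217, chromosome X, 13218977 to 13221469, minus strand), the cathepsin-like pair, differed from each other. *asp-3* had 761 and 718 CPM in starved *hlh-30(lf)* worms, against 2030 and 2299 CPM in starved wild-type worms, and 1182 and 1262 against 1159 and 1290 CPM in the fed genotypes. It fell with starvation in *hlh-30(lf)* (-0.82 ± 0.09, adjusted p = 1.63e-08) and rose in wild type (0.79 ± 0.09, adjusted p = 2.88e-08), as *asp-1* and *asp-5* did, and the responses differed by -1.60 ± 0.13 (adjusted p = 6.66e-11). After CeMM 3 h it had 719 and 692 CPM in *hlh-30(lf)* and 1552 and 1619 CPM in wild type, and after CeMM 15 h 937 and 875 and 1019 and 955 CPM. The genotype difference was -1.21 ± 0.09 at 3 h (adjusted p = 9.29e-12) and -0.40 ± 0.09 at 15 h (adjusted p = 0.000967). Without normalization factors the value at 15 h was -0.12 and did not pass (adjusted p = 0.415).

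*asp-4* rose with starvation in both genotypes. It had 61.1 and 69 CPM in fed and 224 and 214 CPM in starved *hlh-30(lf)* worms, and 68.5 and 68.3 CPM in fed and 263 and 242 CPM in starved wild-type worms. The rises were 3.17-fold in *hlh-30(lf)* (1.66 ± 0.08, adjusted p = 2.13e-15) and 3.59-fold in wild type (1.85 ± 0.08, adjusted p = 2.35e-16), and the test of their difference did not pass (-0.18 ± 0.12, 95% interval -0.41 to 0.05, adjusted p = 0.317). *asp-4* was the one gene of the 10 that rose with starvation by at least 2-fold in both. In starved worms it was 1.21-fold lower in *hlh-30(lf)* (-0.27 ± 0.08, adjusted p = 0.00903). That small difference did not pass without wild-type starved replicate 1 (-0.24, adjusted p = 0.077), without the 3 wild-type libraries with vitellogenin reads (-0.24, adjusted p = 0.0602) or without normalization factors (-0.20, adjusted p = 0.112). CeMM 3 h separated the genotypes: 209 and 202 CPM in *hlh-30(lf)*, close to its starved level (-0.11 ± 0.08, adjusted p = 0.509), against 112 and 107 CPM in wild type, which fell 2.38-fold from starvation (-1.25 ± 0.08, adjusted p = 1.26e-12). The responses to CeMM 3 h differed by 1.14 ± 0.12 (adjusted p = 1.26e-08). After CeMM 15 h *asp-4* had 161 and 170 CPM in *hlh-30(lf)* and 203 and 186 CPM in wild type, and had risen in wild type since 3 h (1.07 ± 0.08, adjusted p = 2.49e-10), the one member to do so.

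**Figure D3:**
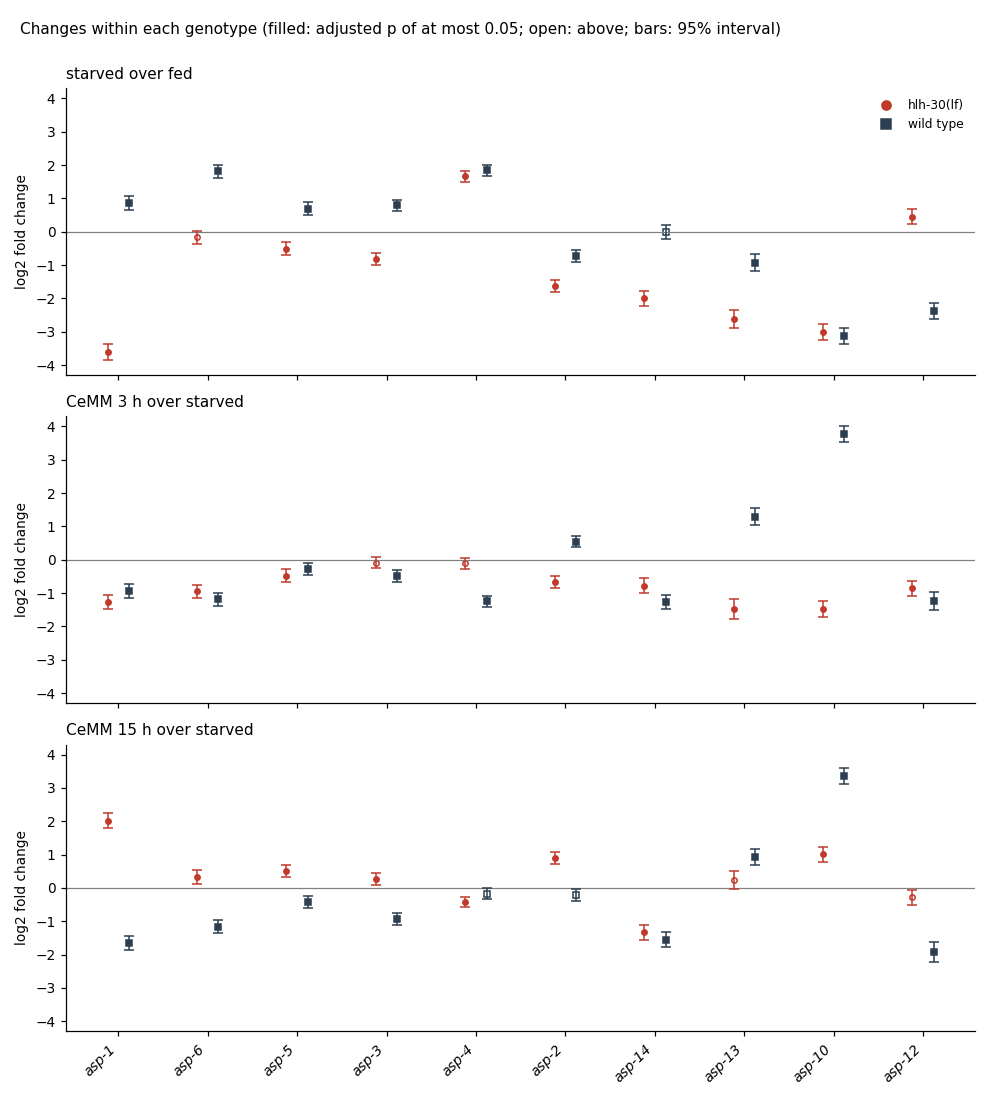
Log2 fold change of each gene for starved over fed (top), CeMM 3 h over starved (middle) and CeMM 15 h over starved (bottom), in *hlh-30(lf)* (circles) and wild type (squares); bars are 95% intervals, filled points have an adjusted p of at most 0.05 and open points do not. *asp-4* and *asp-10* lie close together in the top panel, and *asp-10* lies farthest apart in the middle panel, at -1.47 in *hlh-30(lf)* and 3.77 in wild type.

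*asp-2* (WBGene00000215, chromosome V, 9199680 to 9205128, plus strand), *asp-13* (WBGene00017881, chromosome V, 8641491 to 8643225, minus strand) and *asp-14* (WBGene00019619, chromosome X, 6444185 to 6446738, minus strand) did not rise with starvation in either genotype. *asp-2* had 198 and 209 CPM in starved *hlh-30(lf)* worms, against 360 and 390 CPM in starved wild-type worms, and 570 and 610 against 591 and 626 CPM in the fed genotypes. It fell with starvation in *hlh-30(lf)* (-1.63 ± 0.09) and to a lesser extent in wild type (-0.73 ± 0.09), and the responses differed by -0.89 ± 0.13 (adjusted p = 2.3e-06). After CeMM 3 h it had 136 and 122 CPM in *hlh-30(lf)* and 550 and 580 CPM in wild type, having fallen in *hlh-30(lf)* (-0.67 ± 0.09, adjusted p = 2.78e-06) and risen in wild type (0.55 ± 0.09, adjusted p = 1.72e-05). After CeMM 15 h it had 400 and 362 CPM in *hlh-30(lf)* and 294 and 274 CPM in wild type. The *hlh-30(lf)* pair lay above the wild-type pair, but the difference did not pass (0.14 ± 0.09, 95% interval -0.04 to 0.32, adjusted p = 0.349), and without normalization factors it did (0.42, adjusted p = 0.000812).

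*asp-14* had 74.6 and 85.4 CPM in starved *hlh-30(lf)* worms, against 294 and 304 CPM in starved wild-type worms, and 290 and 312 against 274 and 315 CPM in the fed genotypes. It was 4.01-fold lower in starved than in fed *hlh-30(lf)* worms (-2.0 ± 0.11, adjusted p = 1.07e-12), whereas the wild-type pairs overlapped (-0.01 ± 0.11, 95% interval -0.23 to 0.20). The responses differed by -1.99 ± 0.16 (adjusted p = 6.73e-10). With CeMM it was lower still at both times: 50.3 and 44.4 CPM in *hlh-30(lf)* and 120 and 137 CPM in wild type at 3 h, and 33 and 31.5 CPM in *hlh-30(lf)* and 88.7 and 89.1 CPM in wild type at 15 h. *asp-14* was the one member that fell from starved to CeMM 15 h in both genotypes by at least 2-fold (-1.33 ± 0.11 in *hlh-30(lf)* and -1.55 ± 0.11 in wild type, adjusted p = 2.68e-09 and 1.92e-10). Its genotype difference at 15 h, -1.75 ± 0.12 (adjusted p = 5.14e-11), was close to that in starved worms.

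*asp-13* had 14.7 and 14.3 CPM in starved *hlh-30(lf)* worms, against 45.3 and 44.1 CPM in starved wild-type worms, and 80.5 and 88.1 against 88.8 and 77.5 CPM in the fed genotypes. It fell with starvation in *hlh-30(lf)* (-2.63 ± 0.14, adjusted p = 4.96e-12) and less in wild type (-0.93 ± 0.13, adjusted p = 4.61e-06). At 3 h in CeMM the genotypes lay 22-fold apart, with 5.72 and 4.86 CPM in *hlh-30(lf)* and 102 and 124 CPM in wild type (-4.46 ± 0.15, adjusted p = 8.99e-15). It fell further in *hlh-30(lf)* (-1.47 ± 0.15) and rose in wild type (1.30 ± 0.13), a difference between responses of -2.77 ± 0.20 (adjusted p = 2.45e-09). With 15 h of CeMM it had 19.9 and 14.7 CPM in *hlh-30(lf)* and 80.0 and 69.7 CPM in wild type. The wild-type pair overlapped the fed one. In *hlh-30(lf)* the change since starvation did not pass (0.24 ± 0.14, adjusted p = 0.244), though it did without *hlh-30(lf)* CeMM 15 h replicate 2 (0.46, adjusted p = 0.016).

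*asp-10* (*hrg-7*, chromosome V, 12742041 to 12744170, plus strand), the secreted protease-like gene, fell with starvation in both genotypes and separated them once CeMM was given. It had 172 and 168 CPM in fed and 22 and 23.2 CPM in starved *hlh-30(lf)* worms, and 187 and 161 CPM in fed and 19.1 and 21.3 CPM in starved wild-type worms. The falls were 8.01-fold in *hlh-30(lf)* (-3.0 ± 0.12, adjusted p = 6.41e-16) and 8.81-fold in wild type (-3.14 ± 0.12, adjusted p = 2.98e-16). Their difference did not pass (0.14 ± 0.16, 95% interval -0.17 to 0.45, adjusted p = 0.703). With 3 h of CeMM *asp-10* had 8.87 and 7.63 CPM in *hlh-30(lf)*, against 316 and 254 CPM in wild type, 35.4-fold lower (-5.15 ± 0.13, adjusted p = 2.44e-19), the largest genotype difference of the 10 genes in any state. At that time it was 13.6-fold above its starved level in wild type (3.77 ± 0.12, adjusted p = 4.14e-17) and it had fallen further in *hlh-30(lf)* (-1.47 ± 0.12, adjusted p = 4.61e-09). At 15 h in CeMM it had 50.9 and 41.3 CPM in *hlh-30(lf)*, above its starved pair (1.01 ± 0.11, adjusted p = 1.43e-07), against 192 and 168 CPM in wild type, whose pair overlapped the fed one. The response to CeMM differed between genotypes by -5.24 ± 0.17 at 3 h and -2.34 ± 0.16 at 15 h (adjusted p = 2.59e-16 and 9.12e-11).

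*asp-12* (WBGene00017678, chromosome V, 8269254 to 8272058, plus strand) lies between *asp-6* and *asp-5* and, unlike both, fell with starvation in wild type and was higher in *hlh-30(lf)* in starved and CeMM 3 h worms. From starved to CeMM 3 h it fell in *hlh-30(lf)* (-0.86 ± 0.12, adjusted p = 4.01e-06) and in wild type (-1.25 ± 0.14, adjusted p = 2.47e-08), as *asp-6* and *asp-5* did. It had 27.0 and 31.1 CPM in starved *hlh-30(lf)* worms, against 9.46 and 10.1 CPM in starved wild-type worms, and was the one member higher in *hlh-30(lf)* there (1.5 ± 0.12, adjusted p = 4.36e-11). In fed worms the order was reversed, with 18.2 and 21.8 CPM in *hlh-30(lf)* and 48.3 and 50.3 CPM in wild type (-1.32 ± 0.12, adjusted p = 8.24e-09), and *asp-12* was the one member that differed between fed genotypes. It fell 5.17-fold with starvation in wild type (-2.37 ± 0.12, adjusted p = 3.35e-15). In *hlh-30(lf)* it was slightly higher in starved than in fed worms (0.45 ± 0.12, adjusted p = 0.00255), a call that was lost without *hlh-30(lf)* fed replicate 1 (0.29, adjusted p = 0.152). At 3 h in CeMM it had 16.9 and 15.5 CPM in *hlh-30(lf)* and 5.01 and 3.5 CPM in wild type, and after CeMM 15 h 24.1 and 24.3 CPM in *hlh-30(lf)* and 2.33 and 2.15 CPM in wild type. The responses to CeMM 3 h differed by 0.39 ± 0.18, which did not pass (adjusted p = 0.153) but did without wild-type CeMM 3 h replicate 1 (0.64, adjusted p = 0.0233) and without the 3 libraries with vitellogenin reads (0.71, adjusted p = 0.0236). The change from starved to CeMM 15 h in *hlh-30(lf)* (-0.28 ± 0.12, adjusted p = 0.0713) passed without starved *hlh-30(lf)* replicate 1 (-0.38, adjusted p = 0.0269), wild-type CeMM 3 h replicate 2 (-0.28, adjusted p = 0.0489) or the 3 libraries (-0.28, adjusted p = 0.0408). The genotype difference was 1.89 ± 0.14 at 3 h and 3.15 ± 0.14 at 15 h, where *asp-12* was 8.88-fold higher in *hlh-30(lf)* (adjusted p = 2.71e-12 and 1.1e-15). Wild-type levels were lower at each step from fed to CeMM 15 h, though the step from 3 to 15 h did not pass without CeMM 3 h replicate 1 (-0.44, adjusted p = 0.167), and no 2 neighbouring groups in the order of *asp-12* levels overlapped.

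**Figure D4:**
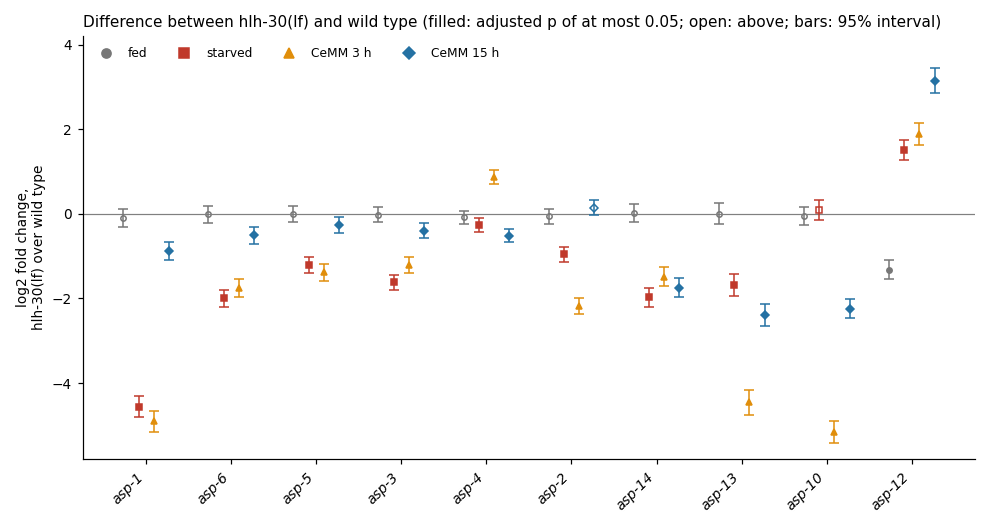
Log2 fold change of *hlh-30(lf)* over wild type for each gene in fed, starved, CeMM 3 h and CeMM 15 h worms; bars are 95% intervals, filled points have an adjusted p of at most 0.05 and open points do not. The fed points lie near 0 except for *asp-12*, at -1.32, and the lowest points are *asp-10* and *asp-1* after CeMM 3 h, at -5.15 and -4.90.

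Over the 8 group means of log2(CPM + 1), Pearson's r between *asp-6* and *asp-5* was 0.94, between *asp-1* and *asp-5* 0.91, between *asp-1* and *asp-3* 0.89 and between *asp-10* and *asp-13* 0.90. *asp-4* had an r of -0.75 with *asp-2* and -0.71 with *asp-10*, and the highest r of *asp-12* with another member was 0.07. The points share their libraries, so these values describe the 8 groups only. Outside the family, the 3 genes most like *asp-1*, of 8593 with a mean of at least 10 CPM, were *gtl-1*, which encodes a TRPM cation channel, *Y54G9A.7*, and *nuo-5*, which encodes a subunit of mitochondrial complex I, with r of 0.99 each. With TMM-scaled CPM *gtl-1* stayed at rank 1, and *Y54G9A.7* and *nuo-5* were at ranks 5 and 9. *gtl-1* averaged 33.4 CPM in starved *hlh-30(lf)* worms, against 227 CPM in starved wild-type worms, and 148 against 150 CPM in the fed genotypes.

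Of 8 other genes with an *asp* symbol, *asp-8* and *asp-9* had means above 1 CPM (16.2 and 1.54 CPM), and the highest of the other 6 averaged 0.319 CPM. *asp-8* was lower in *hlh-30(lf)* after CeMM 3 h (-3.28 ± 0.14, adjusted p = 3.35e-17) and CeMM 15 h (-2.08 ± 0.13, adjusted p = 7.68e-13) and was not called in starved worms. Of 15 other proteases of lysosome and gut, 8 were lower and 6 higher in starved *hlh-30(lf)* than in starved wild-type worms (median -1.14). Of all genes 19.3% were lower and 18.8% higher there. In fed worms 6 were lower in *hlh-30(lf)* and 9 not called (median -0.34), where 2.16% of all genes were lower and 2.26% higher. With 3 h of CeMM 12 were lower and 2 higher (median -1.31), against 18.6% and 17.7% of all genes. After CeMM 15 h 9 were lower and 5 higher (median -1.13), against 12.4% and 11.7% of all genes. Without normalization factors the median of all genes shifted by 0.27 in that last comparison. Among the 4 most abundant of these proteases, the cathepsin Z gene *cpz-2* (-1.14 ± 0.08) and the cathepsin L gene *cpl-1* (-1.83 ± 0.11) were lower in starved *hlh-30(lf)* worms. The cathepsin B-like *cpr-4* (1.71 ± 0.17) and the carboxypeptidase-like *pcp-3* (0.88 ± 0.10) were higher. The calpain gene *clp-1*, which acts with *asp-3* and *asp-4* in necrosis, rose with starvation in *hlh-30(lf)* (0.32 ± 0.08, adjusted p = 0.00109) and in wild type (0.95 ± 0.08, adjusted p = 3.16e-11). The other calpain gene listed for this role in necrosis, *tra-3*, which also acts in sex determination, went the other way in wild type. It fell there (-0.40 ± 0.09, adjusted p = 0.000742) and was not called in *hlh-30(lf)* (0.10 ± 0.09, adjusted p = 0.461).

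Markers of tissues moved with these groups. The summed level of 9 intestine markers was 1331 and 1315 CPM in starved *hlh-30(lf)* worms, against 3226 and 3595 CPM in starved wild-type worms, and 4750 and 4911 against 4571 and 4821 CPM in the fed genotypes. At 3 h in CeMM it was 1767 and 1768 CPM in *hlh-30(lf)* and 3296 and 3597 CPM in wild type, and after CeMM 15 h 3003 and 2939 CPM in *hlh-30(lf)* and 2209 and 1962 CPM in wild type. None of the 9 was at 0 in any sample. In starved worms 5 were lower, 1 higher and 3 not called in *hlh-30(lf)*, where 19.3% of all genes were lower and 18.8% higher. The 9 did not move as one: the intestinal transcription factor gene *elt-2* had 37.6 and 39.1 CPM in starved *hlh-30(lf)* worms, against 17.1 and 16.2 CPM in starved wild-type worms. At 15 h the summed CPM, which carries no normalization factors, was higher in *hlh-30(lf)*. In the test with normalization factors 5 intestine markers were then higher, *ges-1* (-2.21 ± 0.14) and *elt-7* (-0.81 ± 0.12) were lower and 2 were not called in *hlh-30(lf)*. Of all genes 11.7% were higher and 12.4% lower in that test. Markers of other tissues differed between starved genotypes as well. The 4 body wall muscle markers summed to 10096 and 14111 CPM in starved *hlh-30(lf)* worms, against 23901 and 23061 CPM in starved wild-type worms, and the 4 pharynx markers to 1598 and 2265 against 3124 and 3262 CPM. The 3 germline markers were also lower in sum, with 26.6 and 26.0 against 35.9 and 48.9 CPM. The 4 hypodermis markers, at 458 and 461 CPM in starved *hlh-30(lf)* and 185 and 164 CPM in starved wild-type worms, and the 5 neuron markers, at 920 and 901 against 721 and 691 CPM, were higher in sum in *hlh-30(lf)*. By the test, 2 body wall muscle markers were lower, 1 higher and 1 not called in starved *hlh-30(lf)* worms. Of the pharynx markers 3 were lower and 1 higher, and of the germline markers 2 were lower and 1 not called. Of the hypodermis markers 3 were higher and 1 not called, and of the neuron markers 2 were higher and 3 not called. Of all genes 19.3% were lower and 18.8% higher there. None of these markers was at 0 in any sample. The body wall muscle sum after CeMM 3 h was higher in *hlh-30(lf)*, with 13035 and 12909 against 8744 and 9012 CPM in wild type. By the test 2 of these markers were higher there and 2 not called, where 17.7% of all genes were higher and 18.6% lower. In whole worms, fewer cells of a type and less RNA per cell cannot be told apart, and the part of tissue make-up in the *asp* results was not tested.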

How the data were processed

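RNAseq libraries of 16 samples, 2 for each of 8 groups, were used. Per the study's methods, single-end reads of 50 nucleotides were aligned with STAR (2.0.4b in the submitters' processing notes), and uniquely aligned, unambiguous reads were counted per gene with featureCounts. The authors deposited these raw counts for 46726 genes, beside a CPM value (count per 1000000 gene counts of the sample) and an RPKM value (CPM per kilobase of exonic length). The deposited CPM and RPKM were recomputed from the counts as a check, and differed by rounding only. Counts only were tested.

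The 16549 genes without a count were left out, and 30177 were tested with edgeR 4.0.16 (glmQLFit, robust, TMM normalization, 1 coefficient per group, no replicate block) under R 4.3.3. This fit was chosen over the older quasi-likelihood fit because of its behaviour on simulated counts, and scripts were tested on simulated data. Each SE was taken as the estimate (log2) over the root of its F, and 95% intervals are 1.96 SE to each side. The older fit, DESeq2 1.42.0 and limma-voom (limma 3.58.1) were alternatives. Symbols and positions came from the WBcel235 annotation and name tables, and tables and figures from Python 3.11.15.

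All 10 members, *hlh-30*, up to 4 examples of each list with the highest mean CPM, and the 3 genes most like *asp-1* are named; *elt-2*, *elt-7* and *ges-1* were named after their values were seen and *inx-10* for its overlap with *asp-2*. The members and lists were chosen with earlier results of these data known.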

Additional observations from a re-analysis of the deposited data

Results flagged for a closer look

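Each value below is the log2 fold change of *hlh-30(lf)* minus that of wild type for the same contrast, and was picked out because edgeR's test of that difference passed an adjusted p of 0.05. For starved over fed worms the difference was -4.45 for *asp-1*, -1.99 for *asp-14*, -1.98 for *asp-6*, -1.70 for *asp-13*, -1.60 for *asp-3*, -1.20 for *asp-5*, -0.89 for *asp-2* and 2.82 for *asp-12*. *asp-4* and *asp-10* are the members without such a difference in starvation.

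For CeMM 3 h over starved worms it was -5.24 for *asp-10*, -2.77 for *asp-13*, -1.22 for *asp-2*, 1.14 for *asp-4*, 0.49 for *asp-14* and 0.41 for *asp-3*. For *asp-1* the difference was -0.34 and did not pass (adjusted p = 0.136), but it passed with the older quasi-likelihood fit (adjusted p = 0.0435). Without wild-type starved replicate 2 that difference was -0.48. The values of *asp-3* and *asp-14* were small (adjusted p = 0.0192 and 0.0259). Each call was lost when any 1 of several libraries was left out, so the losses do not point to 1 library. For *asp-3* the test did not pass without *hlh-30(lf)* CeMM 3 h replicate 1 (0.41, adjusted p = 0.075), *hlh-30(lf)* starved replicate 2 (0.37, adjusted p = 0.0708), wild-type CeMM 3 h replicate 1 (0.36, adjusted p = 0.0869) or wild-type starved replicate 2 (0.29, adjusted p = 0.167). For *asp-14* it did not pass without *hlh-30(lf)* CeMM 3 h replicate 1 (0.42, adjusted p = 0.142), *hlh-30(lf)* starved replicate 1 (0.40, adjusted p = 0.192), wild-type CeMM 3 h replicate 1 (0.37, adjusted p = 0.141) or wild-type starved replicate 2 (0.44, adjusted p = 0.103), nor without the 3 wild-type libraries with vitellogenin reads (0.41, adjusted p = 0.0955).

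For CeMM 15 h over starved worms it was 3.68 for *asp-1*, 1.65 for *asp-12*, 1.49 for *asp-6*, 1.21 for *asp-3*, 1.09 for *asp-2*, 0.93 for *asp-5*, -0.70 for *asp-13* and -2.34 for *asp-10*. The value of *asp-13* (adjusted p = 0.00832) did not pass without *hlh-30(lf)* CeMM 15 h replicate 2 (-0.49, adjusted p = 0.0631), *hlh-30(lf)* starved replicate 1 (-0.70, adjusted p = 0.0834) or *hlh-30(lf)* starved replicate 2 (-0.73, adjusted p = 0.0539), nor without normalization factors (-0.49, adjusted p = 0.0505). *asp-1*, *asp-2*, *asp-3*, *asp-5* and *asp-6* had the lower response in *hlh-30(lf)* with starvation and the higher one with CeMM 15 h, and both contrasts use the same starved samples.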

How the results depend on the processing

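Over the 10 genes and 15 comparisons, 101 calls kept their direction and passed under each of the 10 other settings and the 16 single samples left out, and 18 were lost under some setting. Over these settings 1 called value changed sign, *asp-5* between genotypes at CeMM 15 h, which was 0.017 without normalization factors. Requiring at least a 2-fold change left 4 *asp* genes called for starved over fed wild type (24.0% of all genes) and 6 for the same in *hlh-30(lf)* (21.1%). Between genotypes it left 1 in fed (1.90%), 7 in starved (21.9%), 9 in CeMM 3 h (19.5%) and 4 in CeMM 15 h worms (10.6%). For CeMM 3 h and 15 h over starved it left 6 and 5 in wild type (13.2% and 12.3%) and 3 and 3 in *hlh-30(lf)* (4.58% and 13.7%). For CeMM 15 h over 3 h it left 5 in *hlh-30(lf)* (11.7%) and 1 in wild type (3.95%). Of the differences between responses, 7 were left for starvation (16.8%), 4 for CeMM 3 h (11.2%) and 6 for CeMM 15 h (11.9%). The other values that changed sign had not passed the test. Between fed genotypes *asp-5* was 0.012 without normalization factors and 0.006 with the 100 most abundant genes left out of scaling, and *asp-13* was -0.008 with DESeq2, -0.008 with RLE size factors and -0.009 with the filter on low counts. For starved over fed wild type *asp-14* was 0.005 with DESeq2, 0.005 with RLE size factors, 0.023 without normalization factors, 0.019 with the filter and 0.034 without the 3 wild-type libraries with vitellogenin reads, a choice made after seeing the data. Between starved genotypes *asp-10* was -0.008 without those 3 libraries, and for CeMM 15 h over 3 h in wild type *asp-6* was -0.21 without normalization factors. The cause was not tested.

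Leaving out normalization factors shifted the median of all genes by 0.27 between genotypes at CeMM 15 h, by -0.19 and -0.23 for CeMM 15 h over starved and over 3 h in wild type, and by 0.21 for the difference between genotypes in the CeMM 15 h response. With 1 sample left out, values between fed genotypes ranged from -0.21 to 0.013 for *asp-1*, -0.10 to 0.077 for *asp-3*, -0.18 to 0.008 for *asp-4*, -0.085 to 0.091 for *asp-5*, -0.14 to 0.12 for *asp-6*, -0.14 to 0.056 for *asp-10*, -0.074 to 0.096 for *asp-13* and -0.088 to 0.14 for *asp-14*. They ranged from -0.008 to 0.20 for *asp-10* between starved genotypes, -0.15 to 0.075 for *asp-14* in starved over fed wild type and -0.043 to 0.094 for *asp-6* in CeMM 15 h over 3 h in wild type. A group left with 1 sample was assumed to vary like the others.

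The study's methods describe replicates run at different times beside their controls, but no label ties a replicate number to such a time, so shared times could not be checked. The r between the deviations of same-numbered samples averaged 0.0087 over 28 pairs of groups, from -0.35 to 0.45, and was above 0.1 in 8 and below -0.1 in 8, so the numbers were not used as pairs. With the replicate number as a block, 1 call was lost, *asp-5* between genotypes at CeMM 15 h (-0.26, adjusted p = 0.0636). With the wild-type CeMM 3 h numbers crossed in the block, also chosen after seeing the data, 7 *asp* genes were called in place of 6 for CeMM 15 h over 3 h in wild type, and the other counts were those of the block. With 2 samples per group, no sample could be tested as standing apart from its group.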
